A study of Mus musculus with 70 samples.

Results

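Gdf15 and Fgf21, the genes of a pair of hormones released by stressed cells, were followed across 26 groups of mouse libraries. They were picked by gene symbol from the deposited table of expression values, which makes them 2 of 21859 genes. Each symbol matched 1 row. Gdf15 (ENSMUSG00000038508.7) lies on chromosome 8 from 70629393 to 70632456 on the minus strand of GRCm38 (mm10), with 1852 exonic bases in GENCODE release 21. Fgf21 (ENSMUSG00000030827.5) lies on chromosome 7 from 45613886 to 45615490, also on the minus strand, with 951 exonic bases. Both are protein coding. Values are FPKM, which scale a gene's fragments by its exon length and by the depth of the library, so levels of the 2 genes can be set side by side.

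GDF15 is a distant member of the TGF-beta family. It is made by many tissues under mitochondrial, toxic or nutritional stress and reduces food intake through GFRAL, a receptor of the hindbrain that signals with the kinase RET. FGF21 is an endocrine fibroblast growth factor, secreted mainly by liver, which acts through FGF receptors together with the co-receptor beta-klotho, the product of Klb. In liver it is a textbook response to fasting through PPAR-alpha, to sugar intake through ChREBP, and to amino acid or mitochondrial stress through ATF4, a factor of the integrated stress response. Transcription of Gdf15 is known to follow p53, ATF4 and CHOP, and GDF15 is often listed among the factors secreted by senescent cells.

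The 70 libraries hold bulk messenger RNA of male C57BL/6 mice or their cells, 18 groups of 3 and 8 groups of 2. Mouse embryonic fibroblasts (MEFs) carried a doxycycline-inducible, constitutively active MEK1 (caMEK1), which activates ERK and models oncogene-induced senescence, or MKK6 (caMKK6), which activates p38 and models stress-induced senescence. They were sampled without doxycycline at day 2 and on 2 µg/mL doxycycline at days 2, 4 and 7. At days 4 and 7 the time in culture and the kinase cannot be told apart. No MEFs without an inducible kinase were given doxycycline, so on every day the drug and the kinase cannot be told apart. Liver and colonic epithelial cells came from chimeric mice, sorted into mCherry cells, which can carry the active kinase, and the GFP cells around them. caMEK1, caMKK6 and control mice were sampled at day 7 on doxycycline (both colours) or without it (GFP only). All mice on doxycycline drank it in water with 10 mg/mL sucrose. The caMEK1 mice received 0.2 mg/mL, and the caMKK6 and control mice 2 mg/mL. In tissue, caMEK1 and dose cannot be told apart, while caMKK6 and control mice shared a dose. Control mice carried the colors without an active kinase. MEFs came from embryos at day 13.5 of gestation. The comparisons within a tissue share control groups. The labels do not say whether replicates of MEFs came from separate embryos, so those p-values measure the spread between these libraries, which may be technical. In bulk samples fewer cells of a type and less RNA per cell cannot be told apart.

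Depth, read back from the steps between FPKM values, was 10888915 to 17763531 reads in MEF, 9267318 to 14534256 in liver and 6671204 to 17396973 in colon libraries. Colon control libraries had 12277329 to 17396973 reads and caMEK1 colon libraries on doxycycline 7949569 to 9310922. Between those groups depth and genotype cannot be told apart. Hepatocyte markers (8 genes) summed to at least 31700 FPKM in liver and at most 0.583 in MEFs, colon epithelium markers (8 genes) to at least 4213 FPKM in colon, and fibroblast markers (6 genes) to at least 1303 FPKM in MEFs. Some libraries stood apart from their labels. Of the 12 caMKK6 MEF libraries, 5 also listed the MEK1 transgene, at 10.96 to 16.53 FPKM (replicates 2 and 3 without doxycycline and at day 2, replicate 2 at day 4). Liver mCherry cells of caMEK1 mice held 5.55 to 14.1 FPKM of their transgene, against 235 to 288 in colon. Liver GFP cells of control mice on doxycycline held 678 to 749.6 FPKM of mCherry. In colon, mCherry replicate 1 of caMKK6 held 179.2 FPKM of EGFP, and control mCherry replicate 2 held 113.9. GFP cells of mice on doxycycline were not free of kinase transgene. In colon they held 115.7, 8.498 and 10.64 FPKM of MKK6 in caMKK6 mice. Those of caMEK1 mice held 12.28 and 28.75 FPKM of MEK1. Liver GFP cells of caMKK6 mice held 1.506 and 30.88 FPKM of MKK6.

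The 250 bases before the transcription starts are shown because both genes are known targets of stress factors, and the sequence lets a reader see which elements of that kind are written there. They are from RefSeq (GRCm38.p6), on the gene's strand, 5′ to 3′. Capitals mark matches to the motifs searched.
Fgf21, chr7:45615491-45615740, minus strand: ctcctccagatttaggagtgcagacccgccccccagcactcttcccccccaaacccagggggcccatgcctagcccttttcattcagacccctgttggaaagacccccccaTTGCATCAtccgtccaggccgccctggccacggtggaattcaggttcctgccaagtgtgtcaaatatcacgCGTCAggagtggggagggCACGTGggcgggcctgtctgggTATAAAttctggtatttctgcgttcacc
Gdf15, chr8:70632457-70632706, minus strand: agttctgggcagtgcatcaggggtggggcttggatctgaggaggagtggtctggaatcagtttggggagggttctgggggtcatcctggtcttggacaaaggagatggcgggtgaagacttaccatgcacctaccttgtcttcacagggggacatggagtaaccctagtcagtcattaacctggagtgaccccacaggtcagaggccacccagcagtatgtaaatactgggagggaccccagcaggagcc
On both strands 7 motifs were searched: the C/EBP-ATF element TGATGNAA, through which ATF4 pairs with C/EBP factors, the cAMP response element TGACGTCA and its shorter core TGACG, the E-box CACGTG, the AP-1 motif TGANTCA, the TATA box TATAAA and the early growth response motif GCGTGGGCG. The shorter core is contained in the full cAMP response element. Fgf21 holds the C/EBP-ATF element on the opposite strand at bases 139 to 132 before the start, the shorter core on the opposite strand at 68 to 64, an E-box at 50 to 45 and a TATA box at 28 to 23. Among 32851 mouse promoters of that length, 3.45% hold the C/EBP-ATF element, 17.8% the shorter core, 6.02% the E-box and 12.4% the TATA box. The full cAMP response element (1.55% of promoters), AP-1 (6.75%) and early growth response (0.536%) motifs have no match there. The Gdf15 window has no match to any of the 7. A second Gdf15 start in RefSeq has an E-box at bases 83 to 78 before it, which lies in an exon of the longer transcript. A match describes the letters of the window and was not tested as a binding site.

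Gdf15 was measured in every library, from 0.3952 FPKM (13 reads) to 38.74 FPKM (630 reads). Colon was highest, with a median of 12.58 FPKM over 23 libraries and a range of 5.279 to 38.74. Liver had a median of 3.687 FPKM over 23 libraries (1.446 to 15.74) and MEFs 3.315 FPKM over 24 (0.3952 to 7.767). The 9 colon groups took the first 9 places by mean level. The highest were the 3 caMKK6 colon groups, at 29.7 ± 9.35 FPKM in mCherry cells, 28.3 ± 9.06 in GFP cells on doxycycline and 17.9 ± 7.72 in untreated GFP cells (SD, n = 3 each). The lowest were the 3 groups of caMEK1 MEFs on doxycycline, at 0.675 ± 0.26 to 0.829 ± 0.0728 FPKM (n = 3 each). Of the 25 pairs of neighbours in this order, 24 had overlapping libraries. The exception was the step from liver caMEK1 mCherry cells (1.717 to 3.611 FPKM) down to caMEK1 MEFs at day 2 of doxycycline (0.7597 to 0.9048 FPKM).

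**Figure D1:**
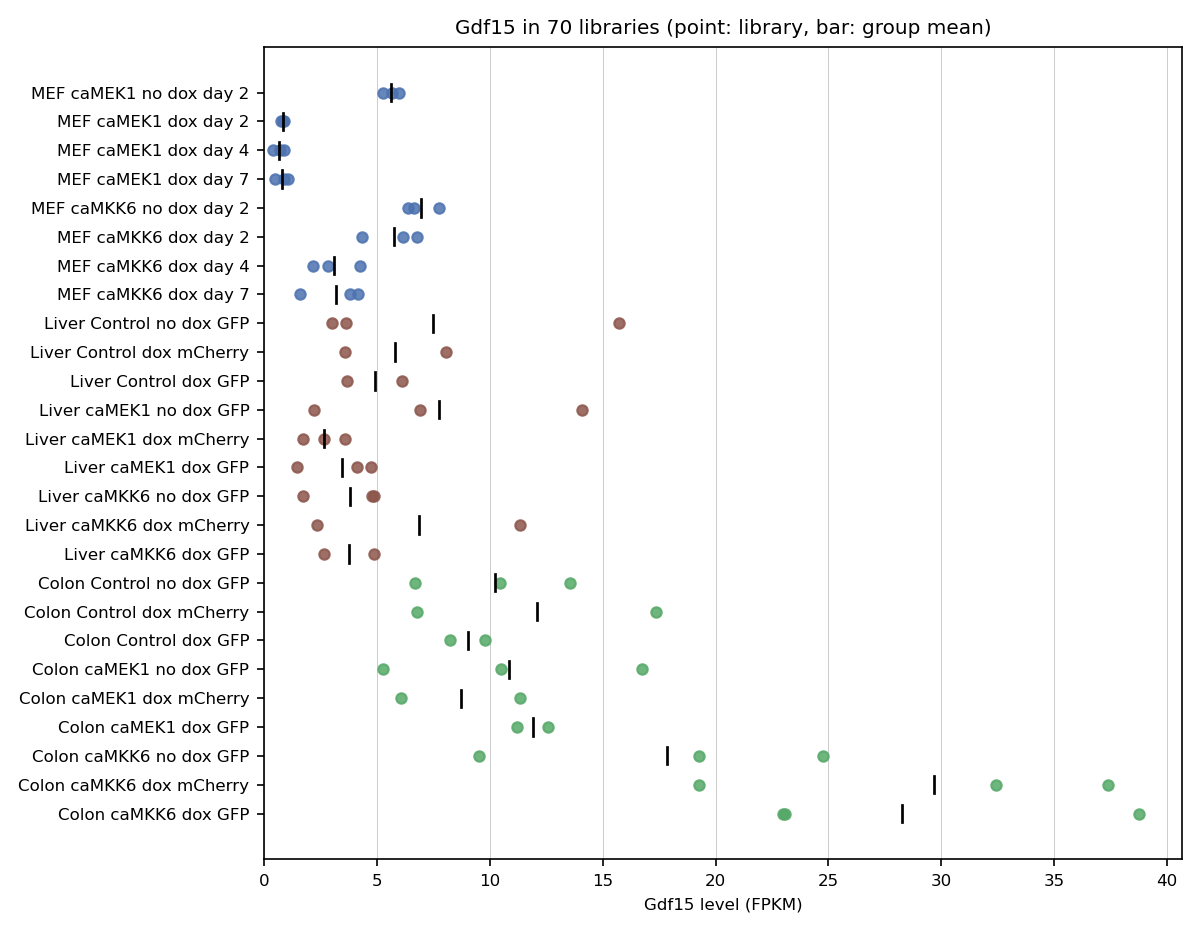
Gdf15 level in FPKM (horizontal axis, linear) in each of 70 libraries, by group. Points are libraries, colored by tissue (blue MEF, brown liver, green colon), and bars are group means. caMEK1 MEFs on doxycycline lie between 0.3952 and 1.073 FPKM, and the caMKK6 colon groups reach 38.74 FPKM.

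Fgf21 was low in nearly all libraries. Up to 3 reads were found in 22 of 24 MEF, 22 of 23 colon and 14 of 23 liver libraries. Far above the rest was 1 library, liver mCherry cells of caMKK6 replicate 2, with 27.21 FPKM from 289 reads. The other 69 libraries held at most 15 reads and 1.287 FPKM. In liver, 5 of 23 libraries had no read and 3 reached 1 FPKM. In colon 18 of 23 libraries had no read, and in MEFs 11 of 24, with a maximum of 6 reads in each. The level that 3 reads stand for, taken here as the limit for a count of 0, was 0.1776 to 0.4729 FPKM over all libraries, and it covers counting error only. No pair of neighbours in the order of Fgf21 levels was free of overlap. Per length, Fgf21 exceeded Gdf15 in 1 of 70 libraries, the same liver library, at 27.21 against 11.36 FPKM.

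**Figure D2:**
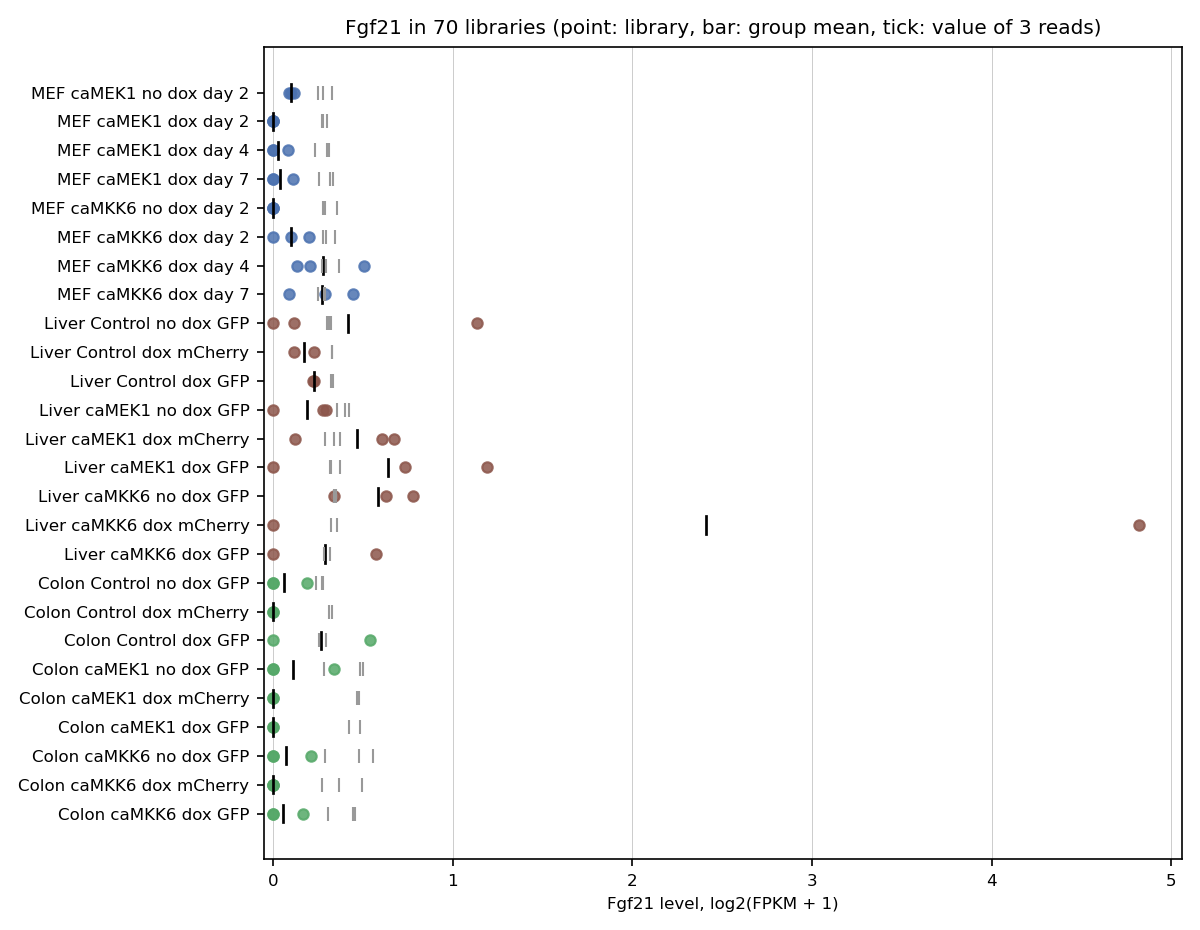
Fgf21 level as log2(FPKM + 1) (horizontal axis) in each of 70 libraries, by group. Points are libraries (blue MEF, brown liver, green colon), black bars group means and grey ticks the value of 3 reads. A single liver caMKK6 mCherry library, at 27.21 FPKM, stands far to the right of all others, and most points lie left of their tick.

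The first comparison set fibroblasts on doxycycline, with the kinase switched on, against untreated ones of the same genotype. Without doxycycline the 3 caMEK1 libraries held 5.66, 5.973 and 5.271 FPKM of Gdf15. At day 2 of caMEK1 they held 0.7597, 0.822 and 0.9048 FPKM, at day 4 0.3952, 0.7216 and 0.9082, and at day 7 1.073, 0.4953 and 0.8823. Every library on doxycycline lay below every untreated one, and the 3 time points overlapped each other. On the log2(FPKM + 1) scale, which understates the change of low genes, Gdf15 fell by 1.86 ± 0.215 (standard error) at day 2, by 2.00 ± 0.215 at day 4 and by 1.88 ± 0.215 at day 7. All 3 passed the test (limma, Benjamini-Hochberg adjusted p = 8.3e-07, 1.5e-07 and 2.9e-07). Falls were common in these cells: 19.8%, 29.3% and 28.7% of the 11347 genes tested fell on the same days. Markers of cell state moved with Gdf15: the 6 fibroblast markers summed to 2046 to 2430 FPKM untreated and 1303 to 1627 on caMEK1, the 6 stromal and stellate markers to 643 to 851.1 and 114 to 244.9, and the 5 cholangiocyte markers, which include Spp1 and Sox9, to 393.4 to 500.3 and 5450 to 8263. Their part in the Gdf15 values was not tested.

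In caMKK6 MEFs a fall of Gdf15 was called at days 4 and 7. Untreated cells held 6.665, 6.38 and 7.767 FPKM. At day 2 the libraries held 4.336, 6.152 and 6.759 FPKM, which overlapped the untreated ones, and the difference of -0.25 ± 0.215 missed the threshold (limma adjusted p = 0.38; 95% interval -0.70 to 0.20), where 39.2% of all genes were called. At day 4 they held 2.827, 2.194 and 4.255 FPKM, and at day 7 4.185, 1.607 and 3.803. All 6 later libraries lay below the untreated ones. Gdf15 fell by 0.98 ± 0.215 at day 4 and again by 0.98 ± 0.215 at day 7 (limma adjusted p = 0.0011 and 0.0013), where 27.7% and 24% of all genes fell. Fibroblast markers summed to 2339 to 2788 FPKM untreated, 1694 to 1889 at day 2, 1683 to 1991 at day 4 and 2134 to 2548 at day 7. Stromal and stellate markers summed to 832.9 to 1018, 433 to 587.8, 398.8 to 711.9 and 633.2 to 1045. Both lists were lower at day 2 than in untreated cells. Their part in the Gdf15 values was not tested. With the 5 libraries that also list the MEK1 transgene left out, the day 4 fall was -0.77 with an adjusted p = 0.101, no longer past the threshold, while day 7 was -0.93 with an adjusted p = 0.038.

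The change of Gdf15 on doxycycline differed between the 2 genotypes. Subtracting the caMKK6 change from the caMEK1 change left -1.61 ± 0.304 at day 2 (limma adjusted p = 0.00058), -1.01 ± 0.304 at day 4 (adjusted p = 0.013) and -0.90 ± 0.304 at day 7 (adjusted p = 0.025). Differences in this direction were called for 8.8%, 14.3% and 14.5% of all genes. Without the 5 libraries with the other transgene these were -1.34 (adjusted p = 0.056), -1.22 (adjusted p = 0.029) and -0.95 (adjusted p = 0.066), so days 2 and 7 lost their call. The day 7 difference was also lost in 5 of 12 fits with 1 library left out: caMEK1 replicate 2 without doxycycline (-0.87, adjusted p = 0.0502) or at day 7 (-0.77, adjusted p = 0.071), caMKK6 replicate 2 without doxycycline (-0.85, adjusted p = 0.0504), and caMKK6 replicates 1 and 3 at day 7 (-0.72 and -0.77, adjusted p = 0.077 and 0.064). Untreated cells of the 2 genotypes differed by -0.26 ± 0.215 (limma adjusted p = 0.53), although their libraries did not overlap, and 6.48% of all genes were called. The share of rises among all called genes moved with scaling for the differences, from 62.5% to 46.3% at day 2 with a common median, and for caMKK6 from 38.2% to 54.5% at day 4. The calls on Gdf15 did not change with that scaling.

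Fgf21 was too low in MEFs to enter the test. Summed over 3 libraries it had 3 reads in untreated caMEK1 cells and 0, 1 and 1 reads at days 2, 4 and 7. In caMKK6 cells the sums were 0 untreated and 3, 9 and 9 reads on those days. The largest single value was 0.4203 FPKM (6 reads) at day 4 in replicate 2 of caMKK6, a library that also lists the MEK1 transgene.

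Genes known to act upstream of the hormones moved in both directions in MEFs. Of 12 sensors and factors of the integrated stress response, 4 rose and 1 fell at day 7 of caMEK1, where 33.4% of all genes rose and 28.7% fell, with a median of 0.09 against 0.03 over all genes. Ddit3, which encodes CHOP, stood at 25.78, 24.29 and 34.29 FPKM against 11.09, 11.34 and 15.86 untreated, a rise of 1.08 ± 0.148 (limma adjusted p = 3.1e-06). Eif2ak3, the endoplasmic reticulum sensor PERK, rose by 1.11 ± 0.0884. Of 16 targets of the response 7 rose and 6 fell, with the pseudokinase gene Trib3 up by 1.10 ± 0.115 and the glutathione-degrading enzyme gene Chac1 up by 1.01 ± 0.147. Of 12 genes for p53 and its targets 5 rose and 3 fell, led by Trp53inp1 (1.29 ± 0.105) and Mdm2 (0.93 ± 0.079), and 3 rose with a common median or without untreated replicate 2. At day 2 of caMEK1, when Gdf15 was already low, 2 of the 12 stress response sensors and factors rose and 6 fell, where 19.5% of all genes rose and 19.8% fell. With 1 library left out 0 to 1 rose and 3 to 6 fell, 0 rising without untreated replicate 3 or day 2 replicate 2, and 3 falling without untreated replicate 3 or day 2 replicate 1. Ddit3 then stood at 7.783, 8.115 and 10.21 FPKM.

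At day 7 of caMKK6, 4 of the 12 sensors and factors rose and 1 fell, against 16.8% and 24% of all genes. Atf3, a stress-induced factor, rose by 1.68 ± 0.163 to 10.24, 10.38 and 7.288 FPKM, and Ddit3 rose by 1.07 ± 0.148. Of the 16 targets 3 rose and 5 fell, and of the 12 p53 genes 3 rose and 2 fell. With a common median, without untreated replicate 3 or without day 7 replicate 1 or 2, 3 targets fell. Egr1, an immediate early factor, fell by 3.44 ± 0.213 to 2.499, 1.574 and 4.1 FPKM from 30.84, 44.86 and 39.21. Without the libraries that list the MEK1 transgene, 3 of the 16 targets rose and 2 fell at day 7.

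In colonic epithelium Gdf15 was examined in mCherry cells against control and in the GFP cells of the same mice. mCherry cells of caMKK6 mice held 19.28, 37.38 and 32.42 FPKM, against 17.37 and 6.793 in control mCherry cells. Of 9 colon comparisons of Gdf15, this one and that between the kinases passed the test. The libraries did not overlap, though the lowest caMKK6 and the highest control value lay close. Gdf15 rose by 1.31 ± 0.457 (limma adjusted p = 0.0491), just inside the threshold, where 20.8% of 11542 genes were called and 11.1% rose. The value kept its sign, but the call was lost with a pseudocount of 0.1, with no filter, with quantile scaling and with the animal as a block (adjusted p = 0.052, 0.083, 0.054 and 0.051). It was lost too without control replicate 2, at 0.69 (adjusted p = 0.43), and without caMKK6 replicate 2 or 3 (adjusted p = 0.14 and 0.12, the latter at 1.22). Against untreated GFP cells of caMKK6 mice the difference was 0.75 (adjusted p = 0.19). Depth was 7700899, 10776309 and 15025071 reads in the caMKK6 mCherry libraries and 12277329 and 12957014 in the control ones. In untreated GFP cells of caMKK6 and caMEK1 mice replicate 3, the deepest, was lowest in Gdf15 (9.524 and 5.279 FPKM). In caMKK6 mCherry cells on doxycycline the lowest was replicate 1, at 19.28 FPKM. In the GFP cells replicates 1 and 3 were nearly equal and lowest, at 23 and 23.09 FPKM. The part of depth in the Gdf15 values was not tested.

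The 3 caMKK6 groups of colon had the highest mean Gdf15, with overlap: untreated replicate 3 lay below 17.37 FPKM in control mCherry replicate 1. GFP cells of the same mice on doxycycline held 23, 38.74 and 23.09 FPKM, and untreated GFP cells 24.77, 19.28 and 9.524. The rise with doxycycline in GFP cells was 0.69 ± 0.409 and missed the threshold (limma adjusted p = 0.33; 95% interval -0.17 to 1.54). For doxycycline in GFP cells 2.6% of all genes were called in caMKK6, 1.33% in caMEK1 and 0.0% in control mice. Within each animal, mCherry minus GFP was -0.24, -0.05 and 0.47, and replicate 2 was the highest in both colors. Over the group the 2 colors differed by 0.06 ± 0.409 (95% interval -0.80 to 0.92). The GFP cells held 115.7, 8.498 and 10.64 FPKM of the MKK6 transgene, against 2648, 1613 and 1214 in the mCherry cells. Its part in the Gdf15 of GFP cells was not tested. Between the colors 21.3% of all genes were called in caMKK6, 13.4% in caMEK1 and 0.0866% in control mice.

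No change of Gdf15 was called with caMEK1 in colon. mCherry cells held 11.32 and 6.091 FPKM, against 17.37 and 6.793 in control mCherry cells. The groups overlapped, though 6.091 FPKM lay below both control values. The difference was -0.36 ± 0.501 (limma adjusted p = 0.65, 95% interval -1.41 to 0.69), where 21.5% of all genes were called. GFP cells of caMEK1 mice held 11.21 and 12.58 FPKM on doxycycline, and 16.76, 10.49 and 5.279 without it. Compared directly, mCherry cells of caMEK1 lay below those of caMKK6 by -1.66 ± 0.457 (adjusted p = 0.0147), where 20.7% of all genes differed and 12.1% were lower. That call was lost without caMEK1 replicate 2, at -1.27 (adjusted p = 0.19), or without caMKK6 replicate 2 or 3, at -1.48 and -1.58 (adjusted p = 0.0505 and 0.0514). In control mice, Gdf15 in GFP cells was 9.809 and 8.249 FPKM with doxycycline and 6.706, 10.46 and 13.56 without.

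Marker lists of other cell types differed between the mCherry groups of colon. The summed level of 5 enteroendocrine markers was 94.91 to 192.4 FPKM in caMKK6 mCherry cells, 29.7 to 48.92 in control and 21.97 to 28.28 in caMEK1 mCherry cells. Within caMKK6 mCherry cells the sum was 192.4, 164.5 and 94.91 FPKM in replicates 1, 2 and 3. Gdf15 was 19.28, 37.38 and 32.42 FPKM in these libraries. Untreated control GFP cells held 148.9 to 268.3 FPKM of these markers. The 5 neutrophil markers summed to 28 to 46.68, 1.802 to 8.026 and 590.2 to 1012 FPKM in the same groups, with Elane at 0 in all of them. Pancreatic acinar markers (7 genes) were at 49.31 to 88.13 FPKM in caMKK6 and at 368 and 44.87 in control replicates 1 and 2. Their part in the Gdf15 values was not tested.

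Targets of the integrated stress response rose in the same caMKK6 colon comparison as Gdf15, and a link between them was not tested. Of 15 tested, 10 rose and 1 fell, with a median of 0.96 against -0.06 over all genes, where 11.1% rose and 9.7% fell. The cystine transporter gene Slc7a11 stood at 6.828, 3.033 and 7.668 FPKM against 0.1931 and 0.1829 (2.45 ± 0.283), and the serine synthesis gene Phgdh at 14.16, 4.629 and 9.236 against 0.7536 and 4.564 (1.61 ± 0.431). Among the caMKK6 replicates, replicate 2 was the highest in Gdf15, at 37.38 FPKM, and the lowest in these 2 genes. Cth, an enzyme of cysteine synthesis, was the member that fell (-1.20 ± 0.193). Without control replicate 1 the count was 3 of 15, and without other single libraries 6 to 10. Of 12 sensors and factors 1 rose, Atf5, and 1 fell, Cebpg. Of 12 p53 genes 1 rose, Bax, and 1 fell, Sesn1. In caMEK1 colon cells, where Gdf15 did not pass the test, 5 of the 15 targets rose and 1 fell, against 9.54% and 12.0% of all genes, and 4 of the 12 p53 genes rose, among them the cell cycle inhibitor gene Cdkn1a (1.87 ± 0.452). The p53 count was 2 without control replicate 2 or either caMEK1 library, and the target count 3 without control replicate 1 or either caMEK1 library. Between the scalings the share of rises among all called genes in the caMEK1 comparison moved from 44.3% to 56.0%.

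Fgf21 was at the detection limit in colon. It had 0 reads in all 7 mCherry libraries of the 3 genotypes. The highest value was 0.4525 FPKM (6 reads) in GFP cells of a control mouse on doxycycline, replicate 2. In those mCherry cells 3 reads stood for at most 0.4096 FPKM.

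In liver, Gdf15 was spread widely among animals of the same group. Gdf15 passed the test in 0 of 9 comparisons with limma and in 0 with voom on recovered reads, and 0 had an unadjusted p below 0.05. Among all genes, 27.1% were called for caMEK1 and 38.2% for caMKK6 against control mCherry cells, 31.7% between the kinases, 38.5%, 19.0% and 0.0868% for doxycycline in GFP cells of caMEK1, caMKK6 and control mice, and 4.71%, 4.28% and 0.106% between the colors of those mice. Untreated control GFP cells held 3.642, 15.74 and 3.022 FPKM, and untreated caMEK1 GFP cells 2.199, 6.918 and 14.1, so the highest liver values came from mice without doxycycline. mCherry cells held 2.64, 3.611 and 1.717 FPKM in caMEK1, 2.362 and 11.36 in caMKK6, and 3.57 and 8.068 in control mice. Against control, Gdf15 differed by -0.85 ± 0.686 in caMEK1 (95% interval -2.29 to 0.60) and by 0.00 ± 0.752 in caMKK6 (95% interval -1.58 to 1.58). Both intervals are wide enough to hold the changes called in MEFs at day 4 of caMKK6. The difference between liver and colon in the caMKK6 change was -1.31 ± 0.9 (limma adjusted p = 0.30), and in the caMEK1 change -0.49 ± 0.9 (adjusted p = 0.75). Neither was called, where 23.6% and 19.6% of 12690 genes were.

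Fgf21 in liver rested on a single library. Liver mCherry cells of caMKK6 mice held 0 FPKM (0 reads) in replicate 1 and 27.21 FPKM (289 reads, exact Poisson 95% interval 24.16 to 30.53 FPKM for counting error only) in replicate 2. GFP cells of the same mice held 0 and 0.4895 FPKM (0 and 6 reads). Control mCherry cells held 0.08477 and 0.1717 FPKM, and caMEK1 mCherry cells 0.5215, 0.5943 and 0.08801. Replicate 1 thus had no read and replicate 2 lay above every other library, and the mean of 13.6 ± 19.2 FPKM (n = 2) describes neither. Over the group Fgf21 was higher than in control mCherry cells by 2.24 ± 0.889 (limma adjusted p = 0.055), higher than in GFP cells of the same mice by 2.12 ± 0.889 (adjusted p = 0.18, or 0.028 with the animal as a block) and in caMEK1 lower by -1.94 ± 0.812 (adjusted p = 0.076). Of 9 liver comparisons of Fgf21, 0 passed the threshold without the block, 3 had an unadjusted p below 0.05 and 0 passed with voom, against 38.2%, 4.28% and 31.7% of 10371 genes called in these 3. The share of rises among called genes moved with a common median, from 93.2% to 72.3% between the colors and from 14.2% to 52.8% between the kinases. With voom on recovered reads the adjusted p values were 0.49, 0.56 and 0.64. Without replicate 1 the comparison with control mCherry cells gave 4.64 (adjusted p = 6.9e-06), with replicate 2 alone assumed to vary like the other groups. Without replicate 2 it gave -0.17 (adjusted p = 0.80).

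**Figure D3:**
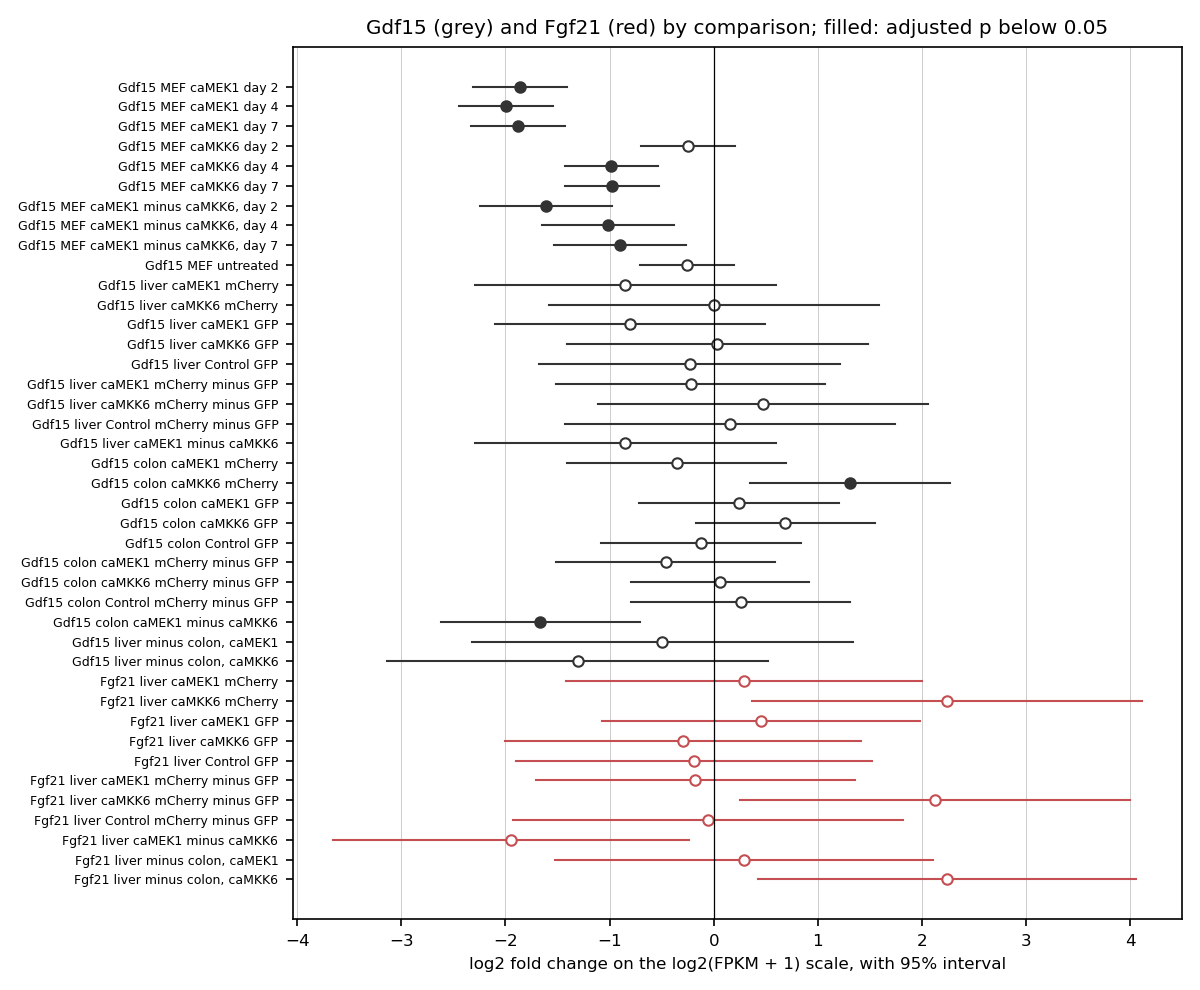
Log2 fold change of Gdf15 (grey) and Fgf21 (red) with its 95% interval (horizontal axis) in each comparison in which the gene was tested. Filled points passed an adjusted p below 0.05, all of them Gdf15 in MEFs or colon, while the Fgf21 values of 2.24, 2.12 and -1.94 in liver are unfilled points with wide intervals.

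The next highest Fgf21 values came from liver too. GFP cells of caMEK1 mice on doxycycline held 0.6652, 1.287 and 0 FPKM (8, 13 and 0 reads), and untreated control GFP replicate 2 held 1.201 FPKM (15 reads). The latter is also the liver library highest in Gdf15, at 15.74 FPKM. Across 23 liver libraries, Gdf15 and Fgf21 on the log2(FPKM + 1) scale had a Pearson r of 0.436 and a Spearman rho of 0.381, and 0.321 and 0.306 without caMKK6 mCherry replicate 2. Both colors of an animal and Fgf21 counts under 16 reads enter these values, which are a description.

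The caMKK6 pair differed in much more than Fgf21. Replicate 2 held 1211 FPKM of the MKK6 transgene and replicate 1 215.9 FPKM. Between them Fgf21 had the largest log2 difference of 10371 genes, at 4.82, and Gdf15 ranked 206 at 1.88. The median gene differed by 0.15, and 8.65% of genes were higher by at least 1 in replicate 2, against 3.23% lower. Genes of the lists differed between the pair in both directions. Trib3 (11.04 and 52.16 FPKM), Ddit3 (1.207 and 8.153) and the antioxidant gene Srxn1 (30.13 and 114.2) were higher in mCherry replicate 2, but not in the GFP cells of that mouse, where Trib3 was 2.41 against 14.76, Ddit3 0.7246 against 1.084 and Srxn1 11.39 against 12.91. Pklr, the liver pyruvate kinase gene and a target of ChREBP, was higher in both colors of mouse 2, at 39.65 against 3.687 FPKM in mCherry and 34.12 against 2.615 in GFP cells. The lipogenic factor Srebf1 and the bile acid receptor gene Nr1h4 were likewise higher in both. Control mCherry cells held 23.39 and 22.15 FPKM of Pklr. Lower in both colors of mouse 2 were Angptl4 (4.652 against 79.48 FPKM in mCherry and 3.966 against 124.9 in GFP cells), the fasting coactivator gene Ppargc1a (3.64 against 16.07 and 4.284 against 14.31), Igfbp1, Sesn1, Sesn2, Btg2, Ddit4 and Cpt1a. These genes were chosen after their values were seen.

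By list, 4 of 13 integrated stress response targets were higher by at least 1 in mCherry replicate 2 and 2 lower, while in GFP cells 1 was higher and 5 lower. Of 11 unfolded protein response genes, 5 were higher and 0 lower in mCherry cells, and 5 higher and 1 lower in GFP cells. Of 7 carbohydrate and bile acid regulators 3 were higher in each color, with 0 and 2 lower. Of 12 genes of PPAR-alpha and fasting 4 were higher and 2 lower in mCherry cells, and 1 higher and 3 lower in GFP cells. In GFP cells 10.3% of all genes were higher in mouse 2 and 7.23% lower. Hepatocyte markers summed to similar levels in the 2 mCherry libraries (31700 and 34800 FPKM), while macrophage markers were at 23.15 and 49.59 FPKM and endothelial markers at 36.72 and 70.92. The pair is 1 library against 1, with no replicate check, and the part of the transgene dose and of the other cell types in the Fgf21 difference was not tested.

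**Figure D4:**
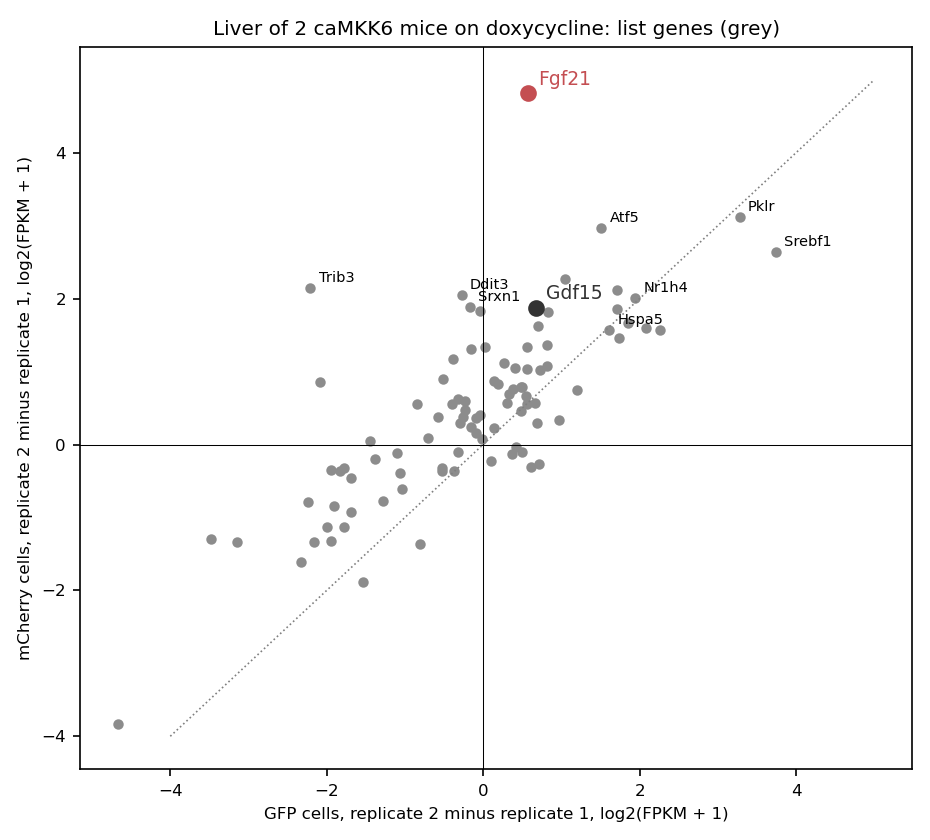
Difference between replicate 2 and replicate 1 of caMKK6 mice on doxycycline in log2(FPKM + 1), GFP cells on the horizontal and mCherry cells on the vertical axis. Grey points are the genes of the lists, red Fgf21 and dark grey Gdf15, and the dotted line marks equal differences. Fgf21, at 4.82 in mCherry cells, lies far above the line, Trib3, Ddit3 and Srxn1 lie above it, and Pklr lies near it.

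Against control mCherry cells, genes of the integrated stress response rose in caMKK6 liver cells, and those named here were higher in the library with no Fgf21 read as well. Of 13 targets 7 rose and 0 fell, with a median of 0.93 against 0.25 over all genes, and of 11 sensors and factors 6 rose and 1 fell. With 1 library left out 3 to 7 sensors and factors rose and 0 fell (3 without control replicate 2), and 5 to 9 targets rose. A rise was common in this comparison, for 28.9% of all genes, and 9.29% fell. With a common median 6 targets and 3 sensors and factors rose, and the share of rises among called genes went from 75.7% to 39.8%. Asns, the asparagine synthetase gene, stood at 41.53 and 63.47 FPKM against 2.771 and 1.403 (4.12 ± 0.506). Atf4 stood at 59.47 and 61.81 FPKM against 20.86 and 18.97 (1.56 ± 0.308). Of 11 unfolded protein response genes 0 rose and 6 fell, with the chaperone gene Hspa5 at 119.2 and 354.7 FPKM against 515.5 and 662.8, but 1 fell without caMKK6 replicate 1, 2 without either control library and 3 with quantile scaling. Without caMKK6 replicate 2, 5 of 12 targets rose and 1 fell, and without caMKK6 replicate 1, 9 of 13 rose.

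In caMEK1 liver cells, with Gdf15 and Fgf21 both short of the threshold, 6 of the 13 targets rose and 3 fell, against 10.7% and 16.3% of all genes. With single libraries left out 2 to 5 targets rose (2 without either control library or caMEK1 replicate 2). Hepatocyte markers summed to 71610 to 103900 FPKM against 42690 to 42840 in control, cholangiocyte markers to 27.76 to 113.1 against 9.052 to 13.42 and neutrophil markers to 3.942 to 25.73 against 1.062 to 1.353, and their part in these values was not tested. Asns stood at 33.23, 41.06 and 14.6 FPKM (3.23 ± 0.462). Of 11 p53 genes 7 rose and 0 fell, including Phlda3 (1.75 ± 0.375) and Cdkn1a (1.91 ± 0.68), and with single libraries left out 1 to 6 rose (1 without control replicate 2, 3 without control replicate 1 or caMEK1 replicate 2). The share of rises among called genes was 39.6%, and 50.1% with quantile scaling.

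The receptor side was measured for FGF21 more than for GDF15. Gfral was under the filter in MEFs, liver and colon. Ret was tested in MEFs, where it rose to 1.423, 0.8508 and 1.001 FPKM at day 7 of caMEK1 from 0.51, 0.4244 and 0.4692 (0.50 ± 0.12, limma adjusted p = 0.0012), and in colon, where the mCherry comparisons with control were not called. It rose at day 4 of caMEK1 too (adjusted p = 0.016). In colon it was higher in mCherry than in GFP cells of caMKK6 mice (limma adjusted p = 0.025). It was lower in caMEK1 than in caMKK6 mCherry cells (limma adjusted p = 0.048). Each of these calls on Ret, in MEFs and colon, was absent in at least 1 fit with 1 library left out. Klb fell in colon mCherry cells of caMKK6 mice to 1.227, 0.5712 and 0.3658 FPKM, and of caMEK1 mice to 0.2412 and 0.2998, from 5.801 and 1.646 in controls (-1.33 ± 0.377 and -1.74 ± 0.413, adjusted p = 0.018 and 0.006). Fgfr2 and Fgfr3 fell beside it under both kinases, 3 of 4 receptor genes tested each time, against 9.7% of all genes for caMKK6 and 12.0% for caMEK1, while Fgfr4 rose with caMEK1 (0.88 ± 0.291). With 1 library left out, 1 to 3 of the 4 fell with caMKK6 (1 without either control library or caMKK6 replicate 3) and 2 to 3 with caMEK1. In liver, Klb held 8.866 and 19.09 FPKM in caMKK6, 12.46, 7.352 and 18.42 in caMEK1 and 10.81 and 11.45 in control mCherry cells, with no call. Fgfr3 was the receptor gene that fell there under both kinases (-1.19 ± 0.318 and -1.16 ± 0.291). With 1 library left out, 1 to 2 of the 5 receptor genes fell with caMKK6 and 0 to 2 with caMEK1. In MEFs Fgfr1 rose and Fgfr2 fell at day 7 under each kinase. Furin, a proprotein convertase, rose in caMEK1 MEFs at day 2 (0.40 ± 0.0828) and in caMKK6 liver cells (1.08 ± 0.339, at 149.2 and 57.57 FPKM against 43.67 and 43.06). Pcsk5 rose at day 7 in caMKK6 MEFs to 5.282, 6.539 and 2.801 FPKM from 0.6639, 0.6906 and 0.5521. Pcsk6 fell there (-1.27 ± 0.369) and rose in colon mCherry cells of both kinases (2.62 ± 0.343 in caMEK1, 1.88 ± 0.313 in caMKK6). Fap, the protease known to inactivate human FGF21, fell in caMEK1 MEFs at day 7 (-0.95 ± 0.2).

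The genes most like the 2 hormones were ranked by the correlation of group means on the log2(FPKM + 1) scale, centered within MEFs, liver and colon, over 26 groups and 10542 genes. For Gdf15 they were Med27 (r of 0.829), Lgals9 (0.781), Pcdh18, Heatr3, Mbnl1, Mrpl3, Dnajb4 and Plod3 (0.756). Med27 and Mrpl3 had an r of at least 0.756 within each of the 3 tissues, while Mbnl1 reached 0.124 in colon. For Fgf21 they were Fezf1 (0.946), Defb1, Elovl7, Arhgef2, Wnt4, Cyp2b10, Ptpn14 and Slc10a3 (0.857). Those values rest on the liver caMKK6 mCherry group: Fezf1 held 57.29 FPKM in its replicate 1, where Fgf21 had no read, and 17.95 in replicate 2, and Cyp2b10 200.9 and 29.93.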

How the data were processed

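The authors deposited 1 table of FPKM values. The submitters' processing notes name cutadapt 1.12 (a read trimmer), STAR 2 (an aligner) and the mm10 build. The counting tool and annotation are not given in the sources used here. Values were whole multiples of 1 read given GENCODE release 21 exon lengths (100% of values under 1000 reads, within 0.02), which gave depth and reads per gene. 668 of 21859 genes had no length there.

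Members, gene lists, tests and naming rule were chosen with earlier results of these data known. Named list genes are up to 4 called members with the largest change per list and comparison, and all receptor and protease genes. A gene of 1 list is not reported here. Like genes are the 8 with the highest r among genes with a group mean of at least 5 FPKM, leaving out predicted genes and pseudogenes. For each tissue limma 3.58.1 (lmFit, eBayes with a trend, R 4.3.3) was fitted on log2(FPKM + 1). Genes had to reach 1 FPKM in 3 MEF libraries, or in 2 for liver and colon, leaving 11347, 10371 and 11542 genes with 16, 14 and 14 residual degrees of freedom. A joint fit of liver and colon had 12690 genes. Tests are two-sided, with Benjamini-Hochberg adjustment over all genes of a fit, and the threshold for a call is 0.05. The method was run on simulated counts with the same spread around the mean for all genes and no animal effect. That run does not show how the method performs at the spread between these animals. Alternatives were a pseudocount of 0.1, no filter, 2 scalings, blocks, other comparators and single libraries left out. Voom on recovered reads, a block within genotype and leaving out libraries with the other transgene were added after seeing the data. Numbers pair libraries in tissue: both colors come from the same animal per the labels (r of 0.396 to 0.817 between deviations). In MEFs 36 of 36 pairs within a genotype correlated above 0.1 (0.112 to 0.803), but 2 of 48 between genotypes. Tables and figures used Python 3.11.15, numpy 2.4.6, pandas 2.3.3, scipy 1.17.1 and matplotlib 3.10.9.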

Additional observations from a re-analysis of the deposited data

Results flagged for a closer look

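For Gdf15, 4 differences between the 2 kinases passed the test of the difference itself (limma). In MEFs the change with caMEK1 minus that with caMKK6 was -1.61 ± 0.304 at day 2, -1.01 ± 0.304 at day 4 and -0.90 ± 0.304 at day 7, with adjusted p = 0.00058, 0.013 and 0.025. In colon mCherry cells caMEK1 minus caMKK6 was -1.66 ± 0.457, adjusted p = 0.0147. The dose of doxycycline differed between the kinases in tissue.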

How the results depend on the processing

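Of 275 values under other settings, 256 kept direction and side of the threshold, and of 246 with 1 library left out, 202 did. Leaving out the caMKK6 MEF libraries that list the MEK1 transgene (chosen after seeing the data) gave Gdf15 -0.77 at day 4 of caMKK6 and kinase differences of -1.34 (day 2) and -0.95 (day 7), none called. Gdf15 in caMKK6 against control liver mCherry cells, 0.00 as reported, was -0.043 with a pseudocount of 0.1, -0.35 with a common median, -0.28 with quantile scaling and -0.091 with voom. Gdf15 in caMKK6 against control colon mCherry cells lost its call at 1.39 (pseudocount of 0.1), 1.31 (no filter), 1.28 (quantile), 1.31 (replicate block, by animal) and 0.75 (untreated GFP comparator). Signs also turned for Gdf15 in colon control GFP cells, 0.0075 with a common median, and in liver caMKK6 GFP cells, -0.32 against control GFP cells. For Fgf21 in liver they turned between control colors (0.045, quantile), in control GFP cells (0.24, voom), between caMEK1 colors (0.16, voom) and in caMKK6 GFP cells against control GFP cells (0.061). With the replicate block Fgf21 between caMKK6 colors in liver, 2.12, passed. Blocks by animal in tissue or within genotype in MEFs changed no other call. The causes were not tested.

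With 1 library left out, Gdf15 spanned -1.21 to -0.72 for the day 7 kinase difference in MEFs. In colon it spanned 0.69 to 1.93 (caMKK6 against control), -2.06 to -1.27 (between kinases), -0.97 to 0.26 (caMEK1 against control), -0.37 to 0.090 and -0.15 to 0.60 (doxycycline in control and caMEK1 GFP cells), and -0.36 to 0.88 and -0.13 to 0.33 (colors in control and caMKK6). In liver it spanned -0.94 to 0.94 (caMKK6 against control), -1.79 to 0.088 (between kinases), -0.61 to 0.42 and -0.33 to 0.37 (doxycycline in control and caMKK6 GFP cells), and -0.34 to 0.65, -0.60 to 0.011 and -0.46 to 1.41 (colors in control, caMEK1 and caMKK6). The liver minus colon difference for caMEK1 spanned -1.11 to 0.13. Fgf21 in liver spanned -0.17 to 4.64 (caMKK6 against control, and again liver minus colon), -4.35 to 0.47 (between kinases), -0.40 to 0.17 (doxycycline in control GFP cells), and -0.11 to 0.0022, -0.50 to 0.10 and -0.29 to 4.53 (colors in control, caMEK1 and caMKK6).

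Depth limits what can be said of Fgf21 in MEFs and colon. With no filter it entered the MEF fit, where 4 of 10 comparisons passed with changes of -0.36 to 0.28 built on 0 to 9 reads a group, and 0 of 9 in colon (smallest adjusted p = 0.58). Groups of 2 animals limit the tissue comparisons.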

Other observations

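Angptl4, an inhibitor of lipoprotein lipase, stood at 113.9, 122.2 and 152.7 FPKM at day 2 of caMEK1 in MEFs against 4.354, 4.441 and 5.997 untreated, a rise of 4.46 ± 0.202 (limma adjusted p = 1.4e-12). At day 7 it was still up by 3.50 ± 0.202, and in caMKK6 MEFs it rose by 0.82 ± 0.202. Adm, the gene of the vasodilator adrenomedullin, fell by 1.63 ± 0.13 at day 2 of caMEK1 in MEFs. It rose in colon mCherry cells of both kinases, by 2.28 ± 0.418 in caMEK1 and 1.18 ± 0.382 in caMKK6. The call on Adm in caMKK6 colon cells was absent in at least 1 fit with 1 library left out.

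In liver mCherry cells Lcn2, the acute-phase lipocalin, stood at 824.3, 313.1 and 196.7 FPKM in caMEK1 and 87.8 and 108.2 in caMKK6 against 14.78 and 13.85 in control mice (4.60 ± 0.598 and 2.69 ± 0.656). GFP cells of the same caMKK6 mice held more Lcn2 than the mCherry cells, at 430.9 and 351.1 FPKM. In mCherry cells Fst, the activin-binding hepatokine gene, rose by 1.92 ± 0.454 in caMEK1 and 2.90 ± 0.497 in caMKK6. Angptl8, an insulin-responsive hepatokine gene, rose in caMEK1 to 92.06, 68.28 and 108.5 FPKM from 3.169 and 4.625. These genes were read from a list of 10 chosen with earlier results known, of which 3 rose and 0 fell of 8 tested in caMEK1, against 10.7% and 16.3% of all genes, and 2 rose and 1 fell in caMKK6, against 28.9% and 9.29%. The caMKK6 count is near that share. The 5 neutrophil markers summed to 3.942 to 25.73 FPKM in caMEK1, 0.4963 to 0.516 in caMKK6 and 1.062 to 1.353 in control mCherry cells, and their part in the Lcn2 values was not tested.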
